A study of Mus musculus with 6 samples.

Results

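The transcription factor p53, encoded in the mouse by Trp53, and 9 of its classic target genes were followed in podocytes depleted of the transcription factor TFEB. The set was taken by gene name (Trp53, Mdm2, Cdkn1a, Perp, Fas, Aen, Ccng1, Gadd45a, Zmat3 and Btg2), and each name matched a single row, giving 10 of the 53715 genes measured. All 10 genes passed the filter on low values described below.

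Podocytes are the cells that cover the capillaries of the kidney glomerulus. RNA sequencing had been carried out on 6 libraries of an immortalized mouse podocyte line, 3 from cells of genotype WT transfected with a scrambled siRNA and 3 from cells labelled TFEB knockdown and transfected with an siRNA against Tfeb. Both groups share the same line, which was expanded with interferon-γ in 10% serum at 33 °C, then moved to 37 °C and 5% serum on type I collagen (12 mg/ml) to differentiate for 10 to 14 days. What immortalized the line, and the siRNA's sequence, dose and time before harvest, are not given in the sources. Whether the means of immortalization acts on p53 itself is therefore not known here. Whole reads recovered from the values numbered 18062898 to 20610888 per library. Tfeb itself stood at 1.80, 2.05 and 2.27 FPKM (fragments scaled to gene length and library depth) in scrambled replicates 1, 2 and 3, and at 0.639, 0.714 and 0.822 FPKM in the Tfeb siRNA replicates, so the groups did not overlap (exact two-sided permutation test p = 0.1, the smallest that 3 against 3 libraries can give). Of 12 podocyte markers 6 had a mean below 1 FPKM, among them the slit diaphragm gene Nphs1 and the transcription factors Wt1 and Tcf21. Of 6 tested podocyte markers 2 were called higher, Podxl among them, and 1 lower, Synpo. Markers of endothelium summed to 1.11 to 1.35 FPKM over 6 genes in control libraries and to 1.04 to 1.22 FPKM after Tfeb siRNA. Of 8 tubule markers 5 had a mean below 1 FPKM, Umod was at 0 in every library, and their sum (with Lrp2 and Aqp1 the abundant ones) ran from 175.6 to 227.4 FPKM and from 180.7 to 217.7 FPKM. Over 6 genes each, the sums were 34.8 to 37.2 and 39.0 to 40.9 FPKM for mesangium and fibroblast, 9.28 to 11.1 and 6.11 to 7.38 FPKM for leukocytes, where Cd3e was at 0, and 4.61 to 5.69 and 5.07 to 5.31 FPKM for keratinocytes. Of the other lists' tested markers, Col1a1 (fibroblast) was higher and Csf1r (leukocyte) lower. The part of these markers in the results below was not tested. In bulk RNA such as this, fewer cells of a type and less RNA per cell cannot be told apart.

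p53 is kept low in unstressed cells because MDM2, a ubiquitin ligase, binds it and marks it for degradation. DNA damage and other stresses release it from MDM2, and p53 then activates genes that stop the cell cycle, repair DNA or start cell death. Mdm2 is itself a target, which closes a negative feedback loop. Because p53 is controlled mostly as a protein, its own transcript says little of its activity, and its targets are the usual readout. All of these targets also answer to other factors. In podocytes the pathway is known mainly from injury and ageing of the glomerulus.

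p53 binds DNA through pairs of a 10-base unit, the p53 consensus decamer. RefSeq promoter windows (build GRCm38.p6, 250 bases before to 50 bases after an annotated start, 300 bases in all) were matched by symbol for 8 of the 10 genes, Perp and Zmat3 not among them. The decamer was searched with no mismatch, and as it reads the same on both strands 1 search covers both. It occurred in 6 of these 8 genes (75%). Of all 27025 genes with a window 9.55% held it, and of the 8495 tested genes with a window 8.23% did. Over all 32851 windows of the same length the share was 8.36%. The 8 genes were taken as p53 and its known targets, so this contrast is no test of them. The sequences below show where the decamer lay, read 5′ to 3′ on the strand of the gene, with the decamer in capitals. Distances are from the RefSeq start of each window, with the start itself counted as base 1 where the decamer lies after it. The stretches of Gadd45a and Aen lie inside the gene spans of the deposited values, which are given further below. They are shown because they hold the p53 unit in genes whose values, given next, did not all move the same way.
Trp53, chr11:69580254-69580323, plus strand, decamer starting 75 bases upstream of the start: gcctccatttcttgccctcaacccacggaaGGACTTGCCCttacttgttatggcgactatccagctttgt
Mdm2, chr10:117710905-117710974, minus strand, 186 bases upstream: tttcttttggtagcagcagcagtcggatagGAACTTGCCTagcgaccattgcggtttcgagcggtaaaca
Cdkn1a, chr17:29090876-29090967, plus strand, 73 and 51 bases upstream: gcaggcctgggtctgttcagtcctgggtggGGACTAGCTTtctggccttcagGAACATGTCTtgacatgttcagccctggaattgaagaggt
Ccng1, chr11:40755432-40755501, minus strand, 185 bases upstream: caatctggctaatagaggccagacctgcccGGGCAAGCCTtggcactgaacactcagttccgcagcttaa
Gadd45a, chr6:67037428-67037457, minus strand, 40 bases upstream: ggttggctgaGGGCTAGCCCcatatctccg
Aen, chr7:78895927-78895956, plus strand, 121 bases upstream of one start and 11 bases after another: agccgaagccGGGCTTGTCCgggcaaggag
The windows of Fas and Btg2 held none, nor did the window of the downstream start of Cdkn1a. A match describes these letters only, and binding was not measured.

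In control cells the p53 targets covered a wide range of transcript levels, and several were among the most abundant transcripts measured. Cdkn1a, which encodes the cyclin-dependent kinase inhibitor p21, had 412 ± 44.9 FPKM (SD, n = 3) in the scrambled group. Over all 6 libraries its mean ranked 69 among the 12257 tested genes. Ccng1, which encodes cyclin G1, a partner of MDM2 and protein phosphatase 2A, followed at 327 ± 5.4 FPKM (rank 105), and Mdm2 at 125 ± 3.09 FPKM (rank 384). Btg2 (69.7 ± 12.1 FPKM) and Perp (58.2 ± 0.437 FPKM) came next and overlapped in range. Trp53 had 28.6 ± 0.661 FPKM, above every value of Aen (26.7 ± 0.817 FPKM). Aen overlapped with Gadd45a (24.8 ± 1.85 FPKM) and Gadd45a with Fas (22.6 ± 2.79 FPKM), while Zmat3 was the lowest at 16.1 ± 0.441 FPKM. After Tfeb siRNA the same order held for the first 4 genes. Perp dropped from place 5 to place 7, where its range overlapped those of Aen (30.6 ± 0.78 FPKM) and Trp53 (31.4 ± 1.07 FPKM). Places 5 to 7 were therefore not told apart. FPKM is divided by a fixed length per gene (4045 bases for Trp53, 1764 for Gadd45a), whatever the length of the transcripts made. The order of genes with close levels therefore depends on that length.

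**Figure D1:**
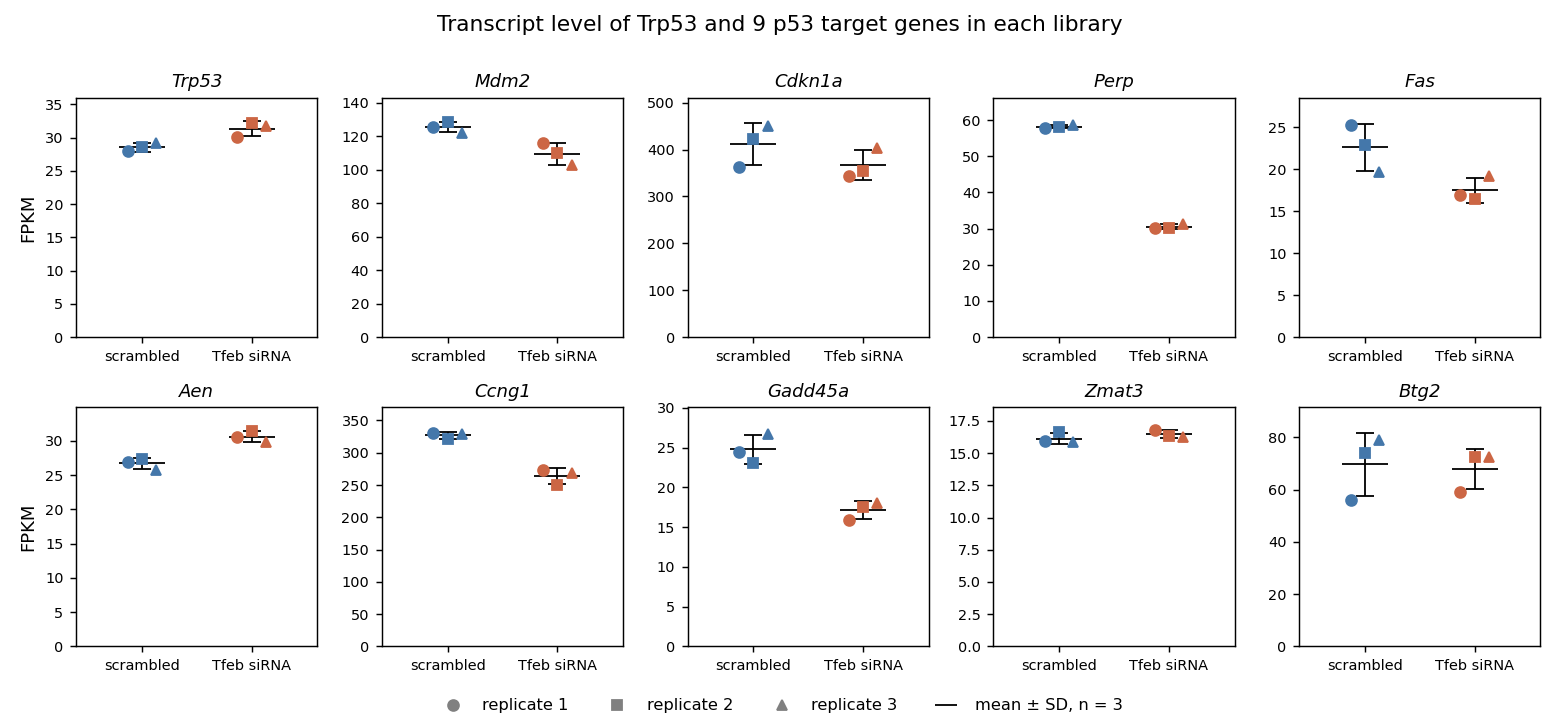
FPKM (vertical axis, starting at 0) of each gene in the 3 scrambled siRNA libraries (blue) and the 3 Tfeb siRNA libraries (orange), with a marker shape for each replicate number and bars for the mean ± SD. The groups are apart for Perp, Gadd45a, Ccng1, Fas, Mdm2, Aen and Trp53 and overlap for Cdkn1a, Zmat3 and Btg2.

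After Tfeb siRNA 5 of the 10 genes fell (Perp, Gadd45a, Fas, Ccng1 and Mdm2), 1 rose (Aen) and 4 did not pass the test (Trp53, Cdkn1a, Zmat3 and Btg2). Genes were tested with limma on log2(FPKM + 0.5) over the 12257 genes whose mean reached 1 FPKM, and called at a Benjamini-Hochberg adjusted p below 0.05. Of all tested genes 33.3% were called, 16.9% higher and 16.4% lower. The median log2 fold change of the 10 genes was -0.18, against 0.02 over all tested genes. The groups did not overlap for 7 of the 10 genes, where 48.7% of all tested genes had such groups. Of these, 2 were higher (25.3% of all tested genes) and 5 lower (23.5%). The set was proposed with earlier results of these data known, so these counts describe the 10 genes and are no test of them. Fold changes on this log scale understate the change of low genes.

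**Figure D2:**
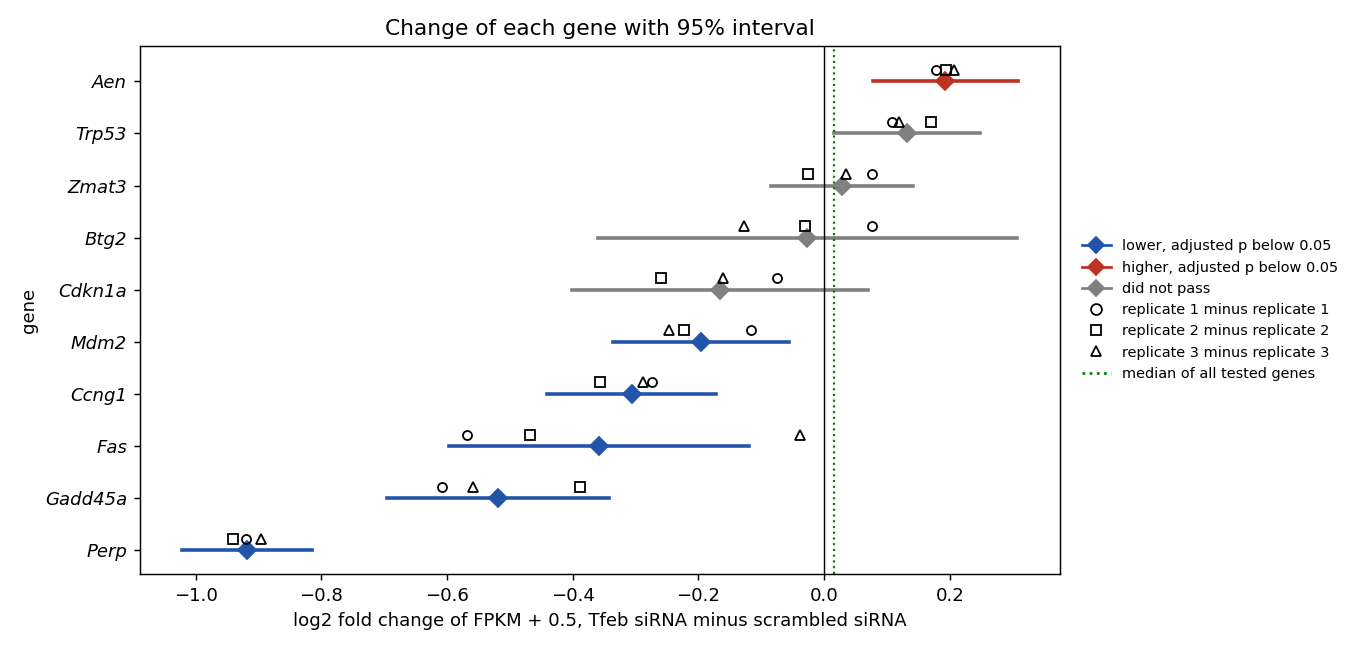
Log2 fold change of FPKM + 0.5 (horizontal axis, Tfeb siRNA minus scrambled siRNA) of each gene, as a diamond with its 95% interval; open markers are the differences between libraries with the same replicate number, and the dotted line is the median of all tested genes. Perp lies at -0.92, far from the other genes, and the intervals of Cdkn1a, Btg2 and Zmat3 span 0.

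The transcript of p53 itself was slightly higher in cells given Tfeb siRNA, without passing the test. Trp53 (ENSMUSG00000059552, chr11:69580359-69591873, build mm10 here and for the genes below) stood at 27.9, 28.5 and 29.2 FPKM in scrambled replicates 1, 2 and 3 and at 30.1, 32.1 and 31.8 FPKM in the Tfeb siRNA replicates. Every Tfeb siRNA library lay above every scrambled library, but the step was small. On the log2 scale the difference was 0.13 (SE 0.05, 95% interval 0.02 to 0.25), with a limma adjusted p of 0.08. With the replicate number as a block the adjusted p was 0.0508. Sequence shared with other annotated transcripts covered 3.88% of the 50-base words of Trp53, the highest share among the 10 genes, and none of Perp, Fas, Ccng1, Gadd45a or Btg2.

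Mdm2, which encodes the ubiquitin ligase that degrades p53, fell. Mdm2 (ENSMUSG00000020184, chr10:117688875-117710758) had 126, 128 and 122 FPKM in the scrambled replicates and 116, 110 and 103 FPKM in the Tfeb siRNA replicates. The lowest scrambled library was above the highest Tfeb siRNA library, and the mean fell by 12.6% (log2 fold change -0.20, SE 0.06, limma adjusted p = 0.0417). This call rests on all libraries together: it was lost without any library but Tfeb siRNA replicate 1 (adjusted p up to 0.117, without scrambled replicate 2), with TPM, that is, each library rescaled to 1 fixed sum (0.0586), and with no filter on low values (0.0918). The ratio of Mdm2 to Trp53, on the FPKM scale, was 4.50, 4.50 and 4.18 in the scrambled replicates and 3.84, 3.42 and 3.23 in the Tfeb siRNA replicates. The groups of this ratio did not overlap (4.39 ± 0.186 against 3.50 ± 0.313, SD, n = 3; log2 difference -0.33, exact two-sided permutation p = 0.1, the smallest possible here).

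Among the targets tied to the cell cycle, Gadd45a and Ccng1 fell, while Cdkn1a and Btg2 did not pass the test. Gadd45a (ENSMUSG00000036390, chr6:67035096-67037457), a small stress protein that binds PCNA and p21, had 24.4, 23.1 and 26.8 FPKM in the scrambled replicates and 15.8, 17.5 and 18.0 FPKM in the Tfeb siRNA replicates. The groups were well apart, and the treated mean reached 69.2% of the control mean (log2 fold change -0.52, SE 0.07, limma adjusted p = 0.00277). A noncoding gene on the opposite strand, E230016M11Rik, overlaps Gadd45a over 859 bases and had 0.36 to 0.85 FPKM. The use of strand in counting is not given, so reads there cannot be told apart.

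Ccng1 (ENSMUSG00000020326, chr11:40748552-40755311) had 331, 321 and 329 FPKM in the scrambled replicates and 274, 251 and 269 FPKM in the Tfeb siRNA replicates. No Tfeb siRNA library came near the scrambled ones, and the mean fell by 19.1% (log2 fold change -0.31, SE 0.06, limma adjusted p = 0.00703). In reads, this was a drop from 71698 to 53328 over the 3 libraries of each group, at library sizes that differed much less.

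Cdkn1a (ENSMUSG00000023067, chr17:29090979-29100722) had 363, 423 and 451 FPKM in the scrambled replicates and 344, 354 and 403 FPKM in the Tfeb siRNA replicates. The highest Tfeb siRNA library lay above the lowest scrambled one, so the groups overlapped, although each Tfeb siRNA library was below the scrambled library of its own number. The difference was -0.17 on the log2 scale (SE 0.10, 95% interval -0.40 to 0.07), and limma gave an adjusted p of 0.244. With the replicate number as a block the adjusted p was 0.0611. Btg2 (ENSMUSG00000020423, chr1:134075170-134079120), an antiproliferative protein that recruits the mRNA deadenylation machinery, had 56.0, 74.1 and 79.0 FPKM and 59.1, 72.5 and 72.3 FPKM. Replicate 1 was the lowest library in both groups, and the groups covered nearly the same range (log2 fold change -0.03, 95% interval -0.36 to 0.31, limma adjusted p = 0.903).

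Of the targets tied to cell death, Perp and Fas fell and Aen rose. Perp (ENSMUSG00000019851, chr10:18845020-18857073) encodes a membrane protein of desmosomes that is needed for p53-dependent apoptosis in some cells. It had 57.7, 58.2 and 58.6 FPKM in the scrambled replicates and 30.3, 30.1 and 31.3 FPKM in the Tfeb siRNA replicates. The libraries of each group agreed closely and the groups lay far apart: the Tfeb siRNA mean was 52.5% of the control mean, resting on 7087 control reads and 3428 reads after Tfeb siRNA. Perp had the largest change of the 10 genes (log2 fold change -0.92, 95% interval -1.02 to -0.81, limma adjusted p = 8.64e-05), and its adjusted p was at most 0.00148 without any single library.

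Fas (ENSMUSG00000024778, chr19:34290659-34327770), the death receptor for Fas ligand, had 25.3, 22.9 and 19.7 FPKM in the scrambled replicates and 16.9, 16.4 and 19.2 FPKM in the Tfeb siRNA replicates. The groups did not overlap, but the lowest scrambled and the highest Tfeb siRNA library, both replicate 3, nearly met. Fas fell by 0.36 on the log2 scale (SE 0.10) with a limma adjusted p of 0.0325, and the difference within replicate number 3 was only -0.04. The call was lost without scrambled replicate 1 or 2 or Tfeb siRNA replicate 1 or 2 in turn (adjusted p 0.0753 to 0.101), and with no filter on low values (0.084).

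Aen (ENSMUSG00000030609, chr7:78895854-78911209), an apoptosis-enhancing nuclease, was the only gene of the 10 called higher. It had 26.9, 27.4 and 25.8 FPKM in the scrambled replicates and 30.5, 31.4 and 29.9 FPKM in the Tfeb siRNA replicates. Each Tfeb siRNA library was above all scrambled libraries, with a rise of 14.6% in the mean (log2 fold change 0.19, SE 0.05, limma adjusted p = 0.0223). The call was lost with TPM (0.0859), with FPKM rescaled to each library's own reads (0.0518, chosen after the data were seen) and without scrambled replicate 3 (0.0849) or Tfeb siRNA replicate 1 (0.0563) or 2 (0.0672).

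Zmat3 (ENSMUSG00000027663, chr3:32334792-32366014) encodes a zinc finger protein that binds RNA, and it did not pass the test. It had 15.9, 16.6 and 15.8 FPKM in the scrambled replicates and 16.8, 16.3 and 16.2 FPKM in the Tfeb siRNA replicates. The groups overlapped and their means differed by less than the spread between libraries of the control group (log2 fold change 0.03, 95% interval -0.08 to 0.14, limma adjusted p = 0.681). The interval covers small changes in either direction.

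The spread between libraries was uneven over the 10 genes. The coefficient of variation in the scrambled group ran from 0.752% for Perp and 1.65% for Ccng1 to 12.3% for Fas and 17.4% for Btg2. Replicate 1 was the lowest library in both groups for 3 genes, Trp53, Cdkn1a and Btg2. For Btg2 it stood at 80.4% of the scrambled mean and 86.9% of the Tfeb siRNA mean, and for Cdkn1a at 88.0% and 93.9%. Over all tested genes the second principal component (19.3% of the variance) also set replicate 1 of both groups apart. Without the libraries numbered 1, an alternative chosen after the data were seen, Perp (adjusted p = 0.0031), Gadd45a (0.0169) and Ccng1 (0.0303) stayed lower by limma and no other gene of the 10 was called, where 24.6% of all tested genes were.

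**Figure D3:**
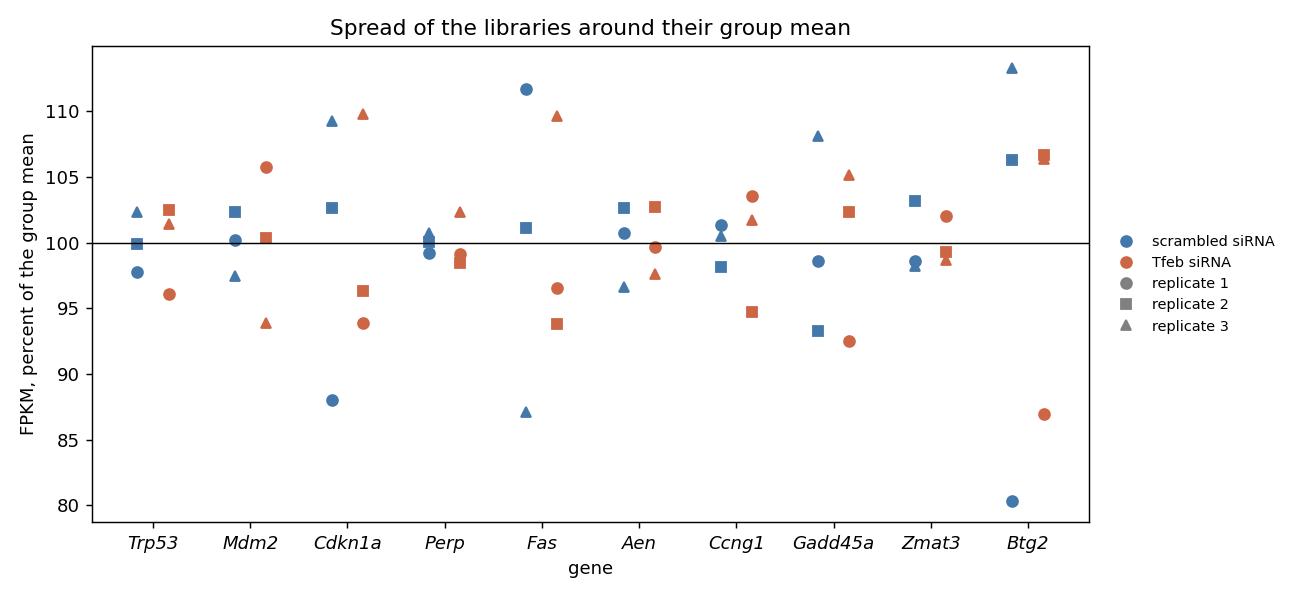
FPKM of each library as a percent of the mean of its own group (vertical axis) for each gene, in blue for scrambled siRNA and orange for Tfeb siRNA, with a marker shape for each replicate number. Perp stays within 98.5% and 102.4%, whereas replicate 1 of Btg2 lies at 80.4% and 86.9%.

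The genes whose profile over the 6 libraries was nearest to that of Trp53 were Gbe1, Rpn1 and Csnk1g3. Their mean absolute difference from Trp53, on log2(FPKM + 0.5) after each gene's own mean was subtracted, was 0.0063, 0.0114 and 0.0163. Gbe1, the glycogen branching enzyme, had 8.47, 8.81 and 9.0 FPKM in the scrambled replicates and 9.36, 9.96 and 9.84 FPKM in the Tfeb siRNA replicates. None of the 3 passed the limma test (adjusted p = 0.0828, 0.0968 and 0.102).

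Other genes of the pathway were read from 6 lists chosen by role, with 93 genes, of which 78 were tested. Of these 78 genes 17 rose, 11 fell and 50 did not pass, so 35.9% were called against 33.3% of all tested genes. Of 18 regulators of p53, 4 rose and 1 fell (median log2 fold change -0.00). Hipk2, a kinase that phosphorylates p53, rose from 9.24 ± 0.507 to 14.5 ± 0.631 FPKM (SD, n = 3; limma adjusted p = 0.000785). Kat5, an acetyltransferase that acts on p53, rose from 12.4 ± 0.184 to 17.8 ± 0.156 FPKM (limma adjusted p = 0.000597). Chek2, the checkpoint kinase, fell from 4.81 ± 0.185 to 3.84 ± 0.391 FPKM (limma adjusted p = 0.0314), a call lost without any library but Tfeb siRNA replicate 2 (up to 0.0881). Mdm4, the relative of Mdm2 that inhibits p53, had 6.75 ± 0.575 and 6.89 ± 0.788 FPKM (limma adjusted p = 0.868). Cdkn2a, whose locus encodes the MDM2 inhibitor ARF along with p16, had 107 ± 17.1 and 79.0 ± 12.4 FPKM. It missed the threshold (limma adjusted p = 0.0609) but passed in the fit blocked by replicate number (0.00177), as well as without scrambled replicate 1 (0.0263). Mdm4 and Cdkn2a were picked out after their values were seen.

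Further p53 targets also moved both ways. Of 19 tested targets in arrest, repair and metabolism 2 rose, 4 fell and 13 did not pass (median log2 fold change -0.07). This made 31.6% called, near the 33.3% of all tested genes. With the replicate number as a block 11 of them were called in place of 6, where 40.2% of all tested genes were called. Xpc, which recognises damaged DNA in nucleotide excision repair, rose from 7.97 ± 0.387 to 11.5 ± 0.28 FPKM (limma adjusted p = 0.0011). Tigar, which lowers glycolysis, rose from 5.35 ± 0.445 to 6.85 ± 0.698 FPKM (limma adjusted p = 0.0312), and was no longer called without scrambled replicate 2 or 3 or Tfeb siRNA replicate 1 or 2 (up to 0.096). Dram1, a lysosomal membrane protein that links p53 to autophagy, had 1.66 ± 0.135 FPKM in controls and fell to 0.647 ± 0.195 FPKM (limma adjusted p = 0.00599, log2 fold change -0.93). Dram1 reached the filter at a mean of 1 FPKM only through the control libraries, which favours a fall. Its call, 1 of the 4 that fell, is therefore no support for one. Polk, a DNA polymerase that copies past lesions, fell from 20.9 ± 0.866 to 15.4 ± 1.55 FPKM (limma adjusted p = 0.00603).

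Of 11 targets in cell death 1 rose, 3 fell and 7 did not pass (median log2 fold change -0.06). This made 36.4% called, near the 33.3% of all tested genes. Ei24, an endoplasmic reticulum protein, rose from 25.7 ± 1.02 to 34.0 ± 1.02 FPKM (limma adjusted p = 0.00189). Eda2r, a receptor of the tumour necrosis factor receptor family like Fas, fell from 28.9 ± 1.48 to 19.1 ± 1.54 FPKM (limma adjusted p = 0.00143), and Trp53i11 from 14.9 ± 0.888 to 11.2 ± 1.05 FPKM (limma adjusted p = 0.00986). The mitochondrial death genes Bax, Bbc3 and Pmaip1, picked out after their values were seen, did not pass. Bax had 61.0 ± 4.06 and 56.4 ± 5.83 FPKM, Pmaip1 59.9 ± 5.10 and 57.2 ± 2.34 FPKM, and Bbc3 11.1 ± 2.62 and 13.7 ± 3.25 FPKM. For Bbc3 the limma adjusted p was 0.365 without the block and 0.00706 with the replicate number as a block.

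**Figure D4:**
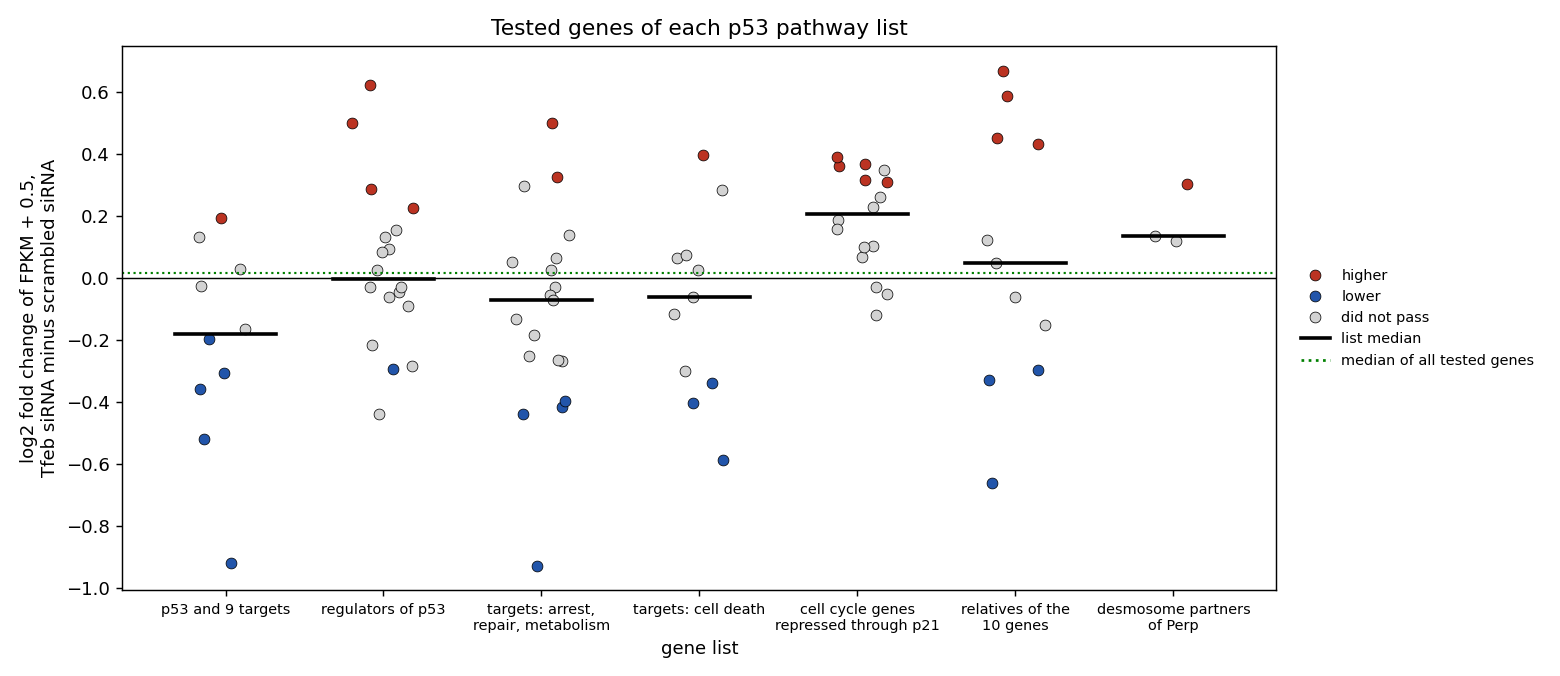
Log2 fold change of FPKM + 0.5 (vertical axis, Tfeb siRNA minus scrambled siRNA) of every tested gene in the p53 set and in 6 lists of the pathway, red where called higher, blue where called lower and grey where the test was not passed; bars are list medians and the dotted line is the median of all tested genes. The list of cell cycle genes has its median at 0.21 and no gene called lower, and the p53 set has its median at -0.18.

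Cell cycle genes that p53 represses by way of p21 were higher or did not pass. Of 16 such genes 5 rose (31.3%, against 16.9% of all tested genes called higher), 0 fell and 11 did not pass by limma, with a median log2 fold change of 0.21. In either direction 33.3% of all tested genes were called. The 5 were Ccna2, Aurkb, Birc5, Top2a and Mki67. Birc5, the mitotic protein survivin, rose from 5.33 ± 0.283 to 7.15 ± 0.674 FPKM (limma adjusted p = 0.0105). Mki67, the proliferation marker Ki-67, rose from 12.7 ± 1.02 to 16.5 ± 1.91 FPKM (limma adjusted p = 0.0254) but lost its call without scrambled replicate 1 or 3 or Tfeb siRNA replicate 1 or 2 (up to 0.081). The count of 5 was 2 without scrambled replicate 3, Tfeb siRNA replicate 1 or Tfeb siRNA replicate 2, 3 without scrambled replicate 1, 2 without the libraries numbered 1, 2 with TPM and 3 with no filter. In these fits with fewer libraries 1412 to 1703 of all 12257 tested genes were called higher, against 2075 with all libraries. With TPM 1688 of 15394 were, and with no filter 1607 of 29171. The counts of 2 of 16 lie near the shares of their fits.

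Relatives of the 10 genes moved both ways. Of 11 tested relatives 4 rose and 3 fell (median log2 fold change 0.05), so 63.6% were called against 33.3% of all tested genes. Ccng2, which encodes cyclin G2, rose from 13.4 ± 0.671 to 21.7 ± 1.67 FPKM (log2 fold change 0.67, SE 0.07, limma adjusted p = 0.000986), whereas Ccng1 fell. Btg1 rose from 19.7 ± 1.89 to 29.9 ± 2.88 FPKM (limma adjusted p = 0.00422) and Btg3 fell from 26.8 ± 1.25 to 21.3 ± 1.58 FPKM (limma adjusted p = 0.0114), whereas Btg2 did not pass. Both relatives of Gadd45a fell, as Gadd45a did. Gadd45g fell from 141 ± 22.6 to 89.9 ± 17.4 FPKM (limma adjusted p = 0.0236, 0.0697 without scrambled replicate 3 and also lost without scrambled replicate 2). Gadd45b, picked out after its values were seen, fell from 72.7 ± 3.03 to 59.2 ± 0.634 FPKM (limma adjusted p = 0.00501). The p53 relatives Trp63 and Trp73 lay below the filter, at 0.0152 ± 0.0144 and 0.136 ± 0.0566 FPKM in the scrambled group.

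Perp was abundant in cells that held almost no transcript of the desmosomal cadherins or Dsp. The 7 desmosomal cadherin genes (Dsg and Dsc) reached at most 0.0358 FPKM in any library, and the linker Dsp had 0.152 ± 0.0717 and 0.0741 ± 0.0257 FPKM. Of 13 desmosome genes 3 passed the filter, of which Jup, which encodes plakoglobin and serves adherens junctions too, was called higher. Jup rose from 38.9 ± 3.70 to 48.0 ± 3.75 FPKM (limma adjusted p = 0.0358), a call lost without any library but Tfeb siRNA replicate 1 (up to 0.103).

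Some of the 10 genes carry 3′ UTR words of 7 bases that an earlier ranking on these same fold changes had picked among genes that fell. The words were CTACATA with its neighbour TACATAA, and GGCCATG with its neighbour GCCATGA, and the neighbours overlap by 6 bases. They were searched on the sense strand of the longest 3′ UTR in GENCODE M21, where 33.5% of 10474 genes searched hold at least 1 of them. Among the 10 genes 4 hold 1 such word: 3 of the 5 that fell (Perp, Fas and Ccng1) and 1 of the other 5 (Btg2). The sites are printed, with the word in capitals, to show which genes share a word: Perp with Ccng1, which both fell, and Fas, which fell, with Btg2, which did not pass.
Perp, from base 462 of 1197: ttttcagtTACATAAagaagcag
Ccng1, from base 1435 of 2316: atgaggttTACATAAaaaccaac
Fas, from base 788 of 1218: cagttccaGCCATGAagagagga
Btg2, from base 1227 of 2199: gtagggctGCCATGAagagtcaa
Mdm2 and Gadd45a fell and hold none of these words. Of 4 words picked in the same way among genes that rose, held by 9.36% of the genes searched, only TCGGAGA occurred in the 10 genes, in Zmat3, which did not pass, and none occurred in Aen. Since the words were chosen on the same fold changes, these counts give no independent support, and the part of the words in the changes was not tested.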

How the data were processed

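RNA sequencing of 3 scrambled siRNA and 3 Tfeb siRNA libraries was grouped and numbered by sample title. The deposited table held FPKM values per gene, per the file headers. The submitters' processing notes name mm10 as build; aligner, counter, annotation release and strand use are not given in the sources. Columns left unused numbered 0. Multiplied by gene length, 100% of values above 0 were whole multiples of 1 read (tolerance 1e-06), which gave reads and depth; depth as the authors used it equalled a median-ratio size factor on the geometric mean total, so the deposited values were already scaled between libraries. Reads cover counting error only.

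Groups were compared in limma 3.58.1 (R 4.3.3) on log2(FPKM + 0.5), eBayes with trend, two-sided, Benjamini-Hochberg adjusted over the 12257 genes whose mean reached 1 FPKM. The limma step was checked on simulated data. The labels do not name separate cultures, so p-values cover only the spread among these 6 samples, possibly technical. No libraries agreed within sampling noise: over genes with 20 or more reads in a pair, chi-square per gene was 4.70 to 8.93 within groups and 31.8 to 40.9 between groups. Same-numbered libraries correlated in their residuals at 0.382, 0.129 and 0.166. Scrambled replicate 3 with Tfeb siRNA replicate 2 gave 0.106, and scrambled replicate 2 with Tfeb siRNA replicate 3 gave 0.0996. Replicate 1 of either group with another number gave -0.239 to -0.201. Only replicate 1 was thus clearly set apart, and the pairing of numbers 2 and 3 rests on small differences. The numbers were taken as pairs from the data and not from the labels, and a fit with the number as a block was an alternative. Other alternatives were other pseudocounts, filters and scalings, voom on whole reads, and leaving out libraries.

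Members and lists were chosen with earlier results of these data known. Named were all 10 genes, Tfeb, in each list the 2 called genes with the largest change each way (the 2 with the smallest p where none was called), genes overlapping a member, and the 3 profiles nearest to Trp53. Of tested genes, 99.9% were in GENCODE M21 and 93.7% had the same ends there; ends matched for 8 of the 10 genes. Fas also overlaps Gm27818 (0 to 1.21 FPKM). Values of some marker genes are not reported here.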

Additional observations from a re-analysis of the deposited data

How the results depend on the processing

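Of the 10 genes, 6 were called as deposited and 6 with the replicate number as a block, against 33.3% and 40.2% of all tested genes. Perp, Gadd45a and Ccng1 were called lower under every alternative run. Tfeb was too, except with the filter at a mean of 5 FPKM, where it was not tested. Leaving out 1 library at a time gave 3 to 5 called genes (3 to 4 lower and 0 to 1 higher). The lowest total, 3, came without Tfeb siRNA replicate 2. For the wider lists it gave 19 to 26 called genes against 28. Calls over all 12257 tested genes fell too, from 2005 lower to 1371 to 1720, and from 2075 higher to 1412 to 1703. Without the libraries numbered 1, chosen after the data were seen, 3 genes were called, 3 lower and 0 higher, against 24.6% of all tested genes. With no filter 3 were lower, where 1844 of 29171 genes were. With TPM or with FPKM rescaled to each library's own reads (also chosen then, as was voom) 0 were higher. Called higher over all genes were 1688 of 15394 with TPM and 1778 of 12273 with the rescaled FPKM. The cause of these losses was not tested. Zmat3 reversed to -0.0024 when scaled by the library's own reads. Btg2 reversed to 0.02 without scrambled replicate 2 and to 0.07 without scrambled replicate 3 or Tfeb siRNA replicate 1 (0.0248, 0.0707 and 0.0703). Over single libraries left out it ran from -0.175 to 0.0707, and neither gene was called under any alternative run. Of the lists, the regulators had 5 calls, 2 to 4 without single libraries, 3 without the libraries numbered 1 and 8 with voom. With voom 36.8% of all tested genes were called. Desmosome genes had 1 call, 0 to 1 without single libraries, 2 with no filter and 3 with TPM. The log2 difference of the Mdm2 to Trp53 ratio was -0.40 to -0.28 without any single library, and -0.33 as a difference paired by number (replicate block), where the smallest exact p for 3 pairs is 0.25. The replicate block changed no call among the 10 genes. Count tests of the whole reads planned beside voom (2 alternatives) were not run, since the file holds FPKM.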
